A study of Drosophila melanogaster with 46 samples.

Results

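Cytoplasmic ribosomal protein genes were examined for binding by 3 zinc-finger insulator proteins, Pita, CTCF and Su(Hw), and by their partner CP190 in Drosophila melanogaster. The set holds the protein-coding genes whose symbol starts with RpL or RpS, together with sta, which encodes a further small subunit protein. It has 93 members among 13946 protein-coding genes on arms 2L, 2R, 3L and 3R and on chromosomes 4, X and Y. By symbol alone, 54 members are counted to the large subunit (RpL) and 39 to the small subunit (RpS and sta). This includes 5 members whose symbol ends in -like, and whether their products are part of the ribosome was not checked. The rule uses symbols and not peak values. The set was picked for description with earlier results of these data known. A gene is called bound when a peak lies within 500 bp of either of its ends.

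Binding is given by peak lists from ChIP-seq, the sequencing of DNA precipitated with a protein, on whole animals of strain y1w1118. The 46 samples form 15 groups. Lists named as wild type cover Pita, CTCF and Su(Hw) in adults and in larvae, from animals labelled dCTCFwt, with 2 samples per group except larval CTCF with 4. CTCF was precipitated through an HA tag. The protocol describes third-instar larvae, with no separate text for adults, and lists a rat antibody to CP190 where the dCTCFwt samples name a rabbit one. The remaining list is for larval CP190 and its name gives no genotype. The CP190 samples comprise 14 from mutant larvae and 4 from dCTCFwt larvae. All the mutants carry dCTCFdeltaCP, alone or with SuHwdelta114, PitadeltaCP1 or both. Mixed genotypes in that list cannot be told apart from wild type, and this holds for every CP190 value given here. Each peak has 1 deposited fold enrichment over a control that is not named, with no error between replicates, and the depth is unknown. Folds are therefore read within a list, and a peak's percentile is the percentage of its list with a fold at or below its own. Whole animals mix all tissues, so more cells with a bound site and more binding per cell cannot be told apart.

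Ribosomal protein genes encode the protein part of the cytoplasmic ribosome, are among the most strongly transcribed genes of a growing animal, and many of them host small nucleolar RNA (snoRNA) genes in their introns. Loss of 1 copy of many of them gives the Minute phenotype of slow growth and thin bristles. Pita, CTCF and Su(Hw) each recognise long DNA motifs through arrays of C2H2 zinc fingers. CP190 is brought to DNA by such proteins and is also found at active promoters.

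CP190 was the most frequent of the proteins at these genes, and Pita came next. CP190 was near 74 of the 93 members (79.6%, exact 95% interval 69.9% to 87.2%), against 35.7% of all protein-coding genes. In adults Pita was near 28 members (30.1%, 21.0% to 40.5%), against 11.1% of all genes. In larvae Pita was near 29 members (31.2%, 22.0% to 41.6%), against 10.5% of all genes. For CP190 and Pita the members' intervals thus lay above the share of all genes.

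CTCF and Su(Hw) were rare at the members. Adult CTCF was near 8 members (8.60%, 3.79% to 16.2%) and 4.09% of all genes, and larval CTCF near 6 members (6.45%, 2.40% to 13.5%) and 5.19% of all genes. Adult Su(Hw) was near 4 members (4.30%, 1.18% to 10.6%) and 7.23% of all genes, and larval Su(Hw) near 5 members (5.38%, 1.77% to 12.1%) and 8.46% of all genes. Each of these 4 intervals includes the share of all genes. The members were not tested as a list against other genes.

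**Figure D1:**
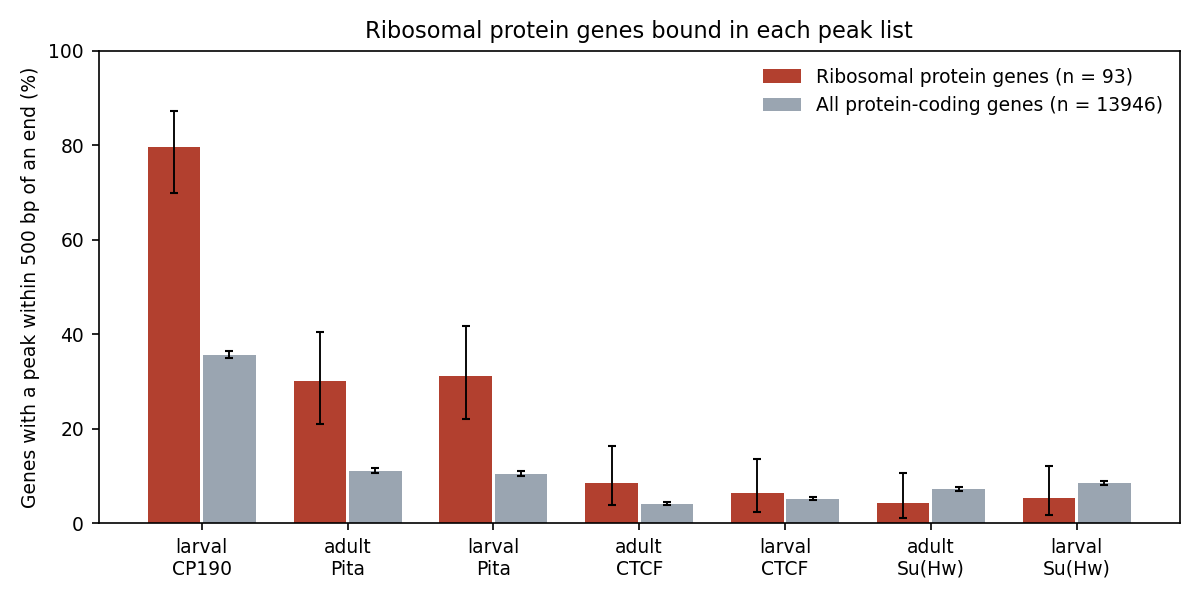
Percentage of genes with a peak within 500 bp of an end (y axis) in each of the 7 peak lists (x axis), for the 93 ribosomal protein genes (red) and all 13946 protein-coding genes (grey), with exact 95% intervals as bars. The red bars reach 79.6% for CP190 and 30.1% and 31.2% for adult and larval Pita, and their intervals include the grey bars for CTCF and Su(Hw).

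Taking the larval lists together, CP190 alone was the most common state. It was found at 41 members (44.1%), against 20.0% of all protein-coding genes. CP190 with Pita followed at 23 members (24.7%), against 6.37% of all genes, and no larval peak at 18 (19.4%), against 59.2% of all genes. The remaining combinations were found at 3 members or fewer. CP190, Pita and CTCF marked 3 members (3.23%) and 1.17% of all genes. CP190 with Su(Hw) marked 3 members (3.23%) and 4.42% of all genes, and CP190 with CTCF 2 members (2.15%) and 2.27% of all genes. RpL37-1, a zinc-binding protein of the large subunit, had peaks of all 4 proteins, RpS15Aa had CP190, Pita and Su(Hw), and RpL3 had Pita alone. CP190 together with Pita, whatever else was present, marked 28 members (30.1%) against 8.53% of all genes. CP190 without Pita marked 46 members (49.5%) against 27.2% of all genes. No peak in any of the 7 lists was found at 18 members (19.4%), against 57.9% of all genes.

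The strongest CP190 peaks at members of each part of the ribosome covered a wide range. Over the 74 bound members the median CP190 fold was 8.63 (quartiles 5.13 and 23.4), against 5.09 over the 4977 bound protein-coding genes. Of the acidic stalk, which recruits translation GTPases, RpLP0 had 23.6-fold, RpLP1 5.07-fold and RpLP2 27.6-fold. The RpLP0 value is from a peak with its summit 920 bp beyond the gene, and the CP190 peak at its other end had 5.17-fold. RpL5 and RpL11, which assemble with 5S rRNA, had 3.05-fold and 7.69-fold. Within the stalk RpLP1 and RpLP2 thus differed several times over. RpS6, the target of S6 kinase, had 5.58-fold, RpS3 at the entry of the mRNA channel 22.8-fold, and RpL32, widely used as a reference transcript, 4.32-fold. Among the fusions of a ubiquitin-like domain to a ribosomal protein, RpS30 had 6.92-fold and RpS27A 2.49-fold, the lowest CP190 value of any bound member, and RpL40 had no peak.

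The 10 highest CP190 folds at members included those of RpS27 (60.5), RpS28a (59.9), RpL30 (53.8), RpS14a (49.9), RpL23 (49.2), RpS15 (47.9), RpS21 (43.7) and RpL7A (36.6). All 10 ranked at or above the 94.3 percentile of the CP190 list. Pita was bound in larvae at 9 of the 10 genes, the exception being RpS21, which carried Su(Hw). The share with Pita among the highest CP190 folds of all genes is not given, so this count is not read as particular to the members. The RpS27 peak, the highest, covered bases 25244792 to 25246617 of chromosome arm 3R on build dm6. Its summit lay 314 bp outside the lower end of RpS27, the end with the smaller coordinate, and 1 bp from the summit of the larval Pita peak.

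The Pita-bound members included proteins of both subunits. High larval folds were found at RpL17 (81.1), a protein lining the exit tunnel, RpS10a (49.0), RpL30 (46.7) and RpS14a (44.3). RpL23 (39.1), RpL22 (35.7), RpS15 (35.5), RpL7A (27.6), RpS28a (21.7) and RpS15Aa (20.3) were also high. They were among the 12 members with more than 20-fold enrichment, and the other 17 had less. In the middle range were RpS27 (19.4), RpL37A (16.5), RpS3 (12.9), RpS23 (10.8) of the decoding centre, RpL3 (10.3) of the peptidyl transferase centre, RpL13A (9.71), RpS16 (9.40), RpL27A (8.75), RpLP2 (8.16) and RpL26 (6.09). The lowest were RpS10b (4.13), RpLP0-like (3.89), RpS7 (3.22), RpL37-1 (2.25), RpL41 (1.91), the shortest ribosomal protein, and RpS26 (1.74), which had 1 of the weakest Pita peaks of the list, at the 0.247 percentile.

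The median adult Pita fold over the 28 bound members was 25.4 (quartiles 11.4 and 48.6, exact 95% interval 13.7 to 47.1), against 11.5 over the 1546 bound protein-coding genes. In larvae it was 12.9 over 29 members (quartiles 8.16 and 35.5, interval 8.75 to 28.4), against 8.21 over 1460 genes. The bound members thus had a higher median Pita fold than all bound genes in each stage. Their median percentile was 78.7 in the adult list and 72.7 in the larval list.

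**Figure D2:**
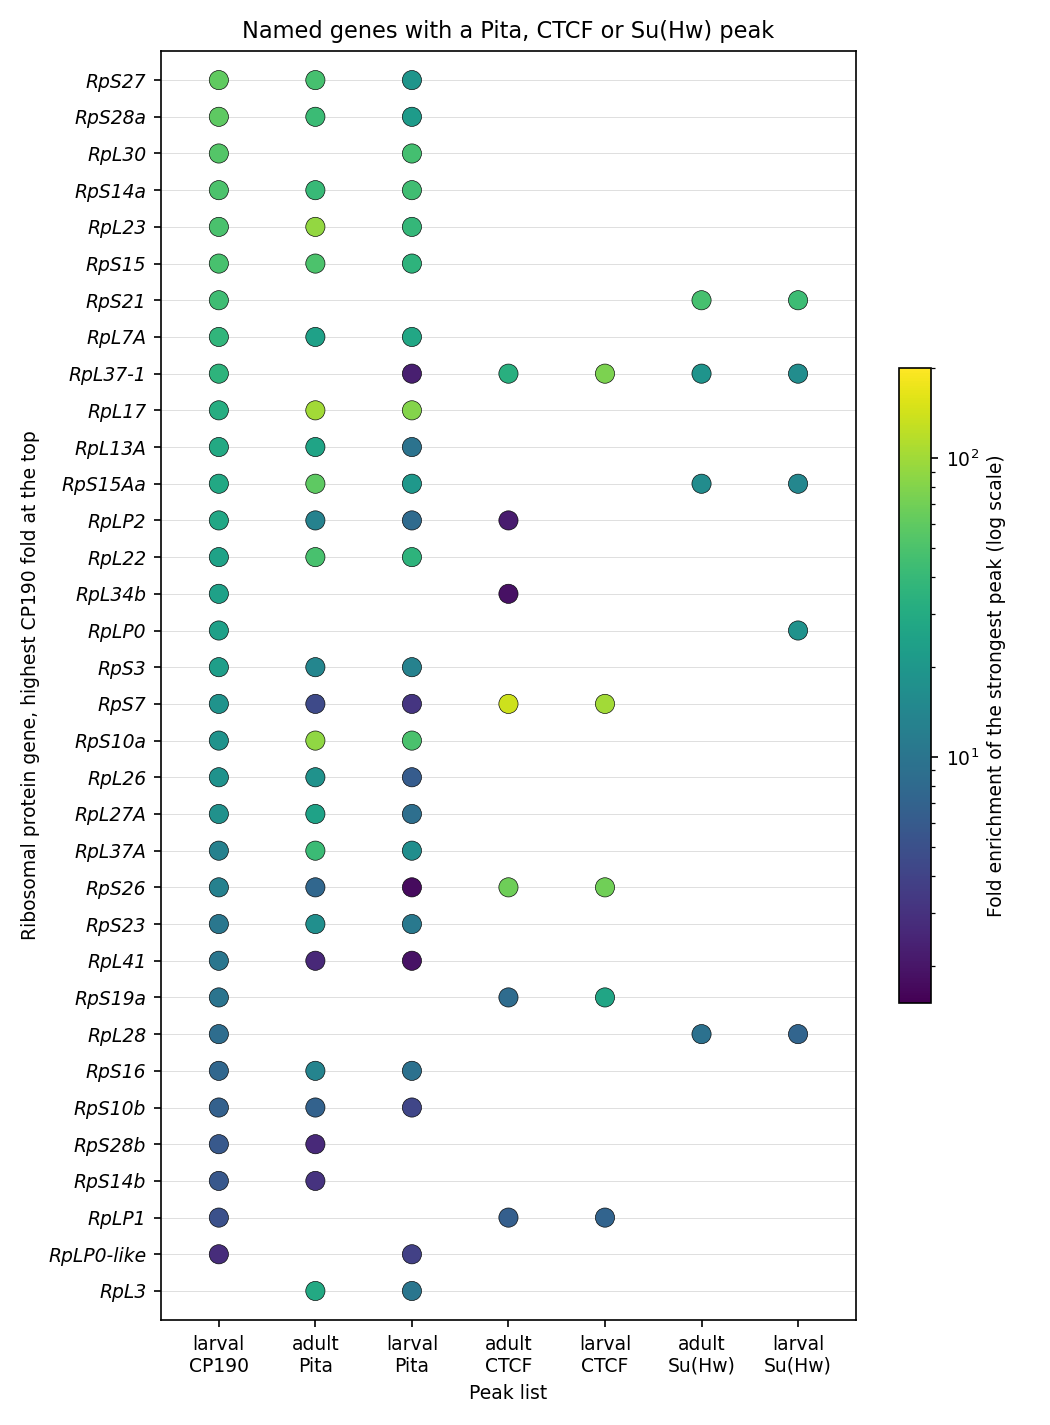
Fold enrichment of the strongest peak (colour, log scale) in each peak list (x axis) for the ribosomal protein genes named in the text that have a Pita, CTCF or Su(Hw) peak in any list (y axis), ordered by CP190 fold with the highest at the top. A missing dot is a gene with no peak within 500 bp of an end. RpS27, with 60.5-fold CP190, stands at the top and RpL3, with no CP190 peak, at the bottom, and CTCF and Su(Hw) dots are few.

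Pita-bound members were compared with the other members by what else was bound there. CP190 was near 28 of 29 Pita-bound members (96.6%, exact 95% interval 82.2% to 99.9%) and 46 of 64 other members (71.9%, 59.2% to 82.4%). The odds ratio was 10.96 (95% interval 1.39 to 86.6), which passed a two-sided Fisher exact test (p = 0.00526, Benjamini-Hochberg adjusted p = 0.0263 over 5 tests). With a distance of 200 bp the odds ratio was 7.67 and the test no longer passed (adjusted Fisher exact p = 0.177), and over all 8 alternatives the adjusted p ranged from 2.10e-04 to 0.177. The same comparison over all protein-coding genes gave 81.5% of 1460 Pita-bound genes and 30.3% of 12486 others, an odds ratio of 10.1 (8.82 to 11.6). The unit is a gene in these lists, so the test does not cover the spread between animals. The exception among the Pita-bound members was RpL3, whose Pita peak of 10.3-fold in larvae overlapped no CP190 peak.

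CP190 peaks were also stronger at the Pita-bound members. The median CP190 fold was 26.4 at the 28 Pita-bound members (lowest 2.78, highest 60.5, exact 95% interval 17.6 to 35.8) and 5.68 at the 46 others (lowest 2.49, highest 43.7, interval 4.44 to 7.80). The groups overlapped in range, while the intervals of their medians did not. The ratio of the medians was 4.65, and 3.22 when each CP190 peak entered by itself. Over all protein-coding genes the medians were 12.1 and 4.29, a ratio of 2.82. No test was made on these folds.

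At 10-fold CP190 or more there were 24 of the 28 Pita-bound members and 7 of the 46 others. The 4 Pita-bound members below it included RpLP0-like (2.78), RpS10b (6.74) and RpS16 (7.60). The RpLP0-like value is from a CP190 peak at the other end of the gene from Pita. Its larval Pita peak overlapped a CP190 peak of 23.4-fold, with summits 7 bp apart, that lay outside the distance. A member's CP190 value is thus not always from its Pita site. At 20-fold or more there were 16 Pita-bound members and 4 others. Those 4 were RpS21 (43.7) and RpLP0 (23.6), which carried Su(Hw) in larvae, and RpS4 (27.6) and RpL34b (24.3), which carried no larval C2H2 protein. The counts at 10-fold and 20-fold are not given for all protein-coding genes, where the median CP190 fold was also higher with Pita. The 41 members with CP190 and no larval C2H2 peak had a median CP190 fold of 5.58 (interval 4.27 to 6.92). Across the 28 members with both proteins the rank correlation of larval Pita and CP190 fold was 0.63 (Spearman), and it was 0.52 over 1190 genes. Both folds often come from chromatin at the same site, where local accessibility and mappability are shared. The part of these in the correlation was not tested.

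**Figure D3:**
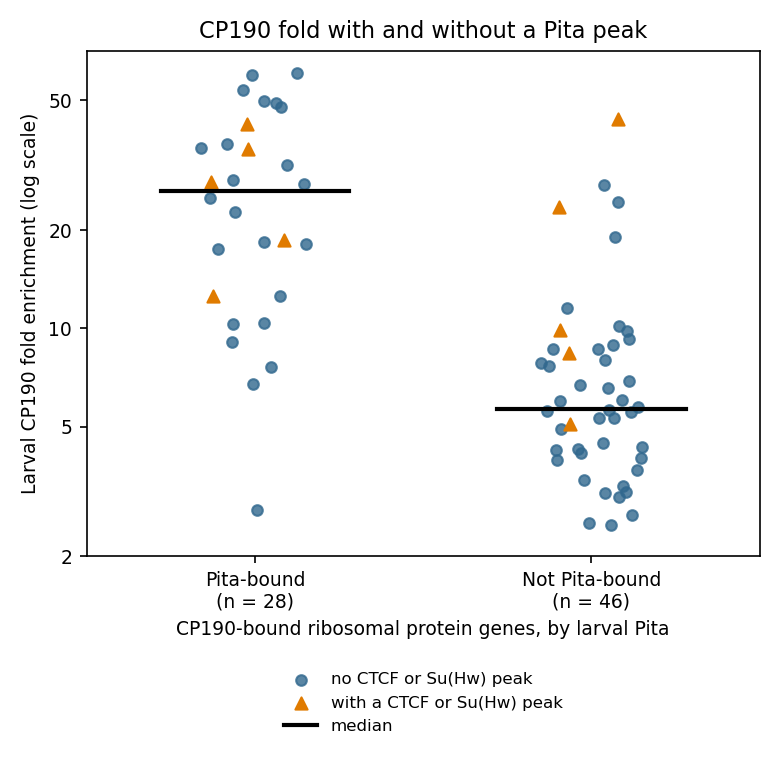
Larval CP190 fold enrichment (y axis, log scale) of the CP190-bound ribosomal protein genes with a larval Pita peak (left, 28 genes) and without it (right, 46 genes). Each point is a gene, triangles are genes with a larval CTCF or Su(Hw) peak, and bars are medians, which lie at 26.4 and 5.68.

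No other feature compared between Pita-bound and other members passed the test. CTCF was near 4 of 29 Pita-bound members (13.8%) and 2 of 64 others (3.12%), an odds ratio of 4.96 (0.854 to 28.8, adjusted Fisher exact p = 0.184). When the summit rather than the edge of a peak had to lie within 500 bp, a setting chosen after seeing the data, the CTCF odds ratio was 12.8 and passed (adjusted Fisher exact p = 0.0439). Su(Hw) was near 2 of 29 and 3 of 64 (odds ratio 1.51, 0.238 to 9.54, adjusted Fisher exact p = 0.646). A snoRNA gene lay within 10 of 29 Pita-bound members (34.5%) and 19 of 64 others (29.7%), with an odds ratio of 1.25 (0.489 to 3.17). Large subunit genes made up 15 of 29 (51.7%) and 39 of 64 (60.9%), with an odds ratio of 0.687 (0.284 to 1.66). Each of these 4 intervals includes 1, so no difference was detectable with these numbers of genes. Median gene length was 1474 bp in the Pita-bound members and 1286 bp in the others.

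Pita and CP190 peaks at these genes were centred on nearly the same base. Of the 29 strongest larval Pita peaks at members 27 overlapped a CP190 peak, as did 858 of all 1213 larval Pita peaks. The members' summits lay a median of 23 bp apart (lowest 1, highest 117). Over the 858 peaks the median was 25 bp. RpL17 showed both situations within 1 gene. Its Pita peak beyond the lower end, 81.1-fold in larvae at bases 6740712 to 6742662 of chromosome X, overlapped no CP190 peak. Its weaker Pita peak beyond the higher end, 21.9-fold, had its summit 4 bp from that of a CP190 peak of 31.6-fold.

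The peak summits lay mostly outside the genes. The larval Pita summit was inside the gene at 1 of 29 members, RpS26, and the CP190 summit at 8 of 74. These counts are not given for all bound genes, so they are not read as particular to the members. The rule admits only peaks within 500 bp of a gene end, which limits the distances below. The median distance from the larval Pita summit to the nearest end of the member was 228 bp (interval 115 to 385). For CP190 it was 191 bp at Pita-bound members (110 to 303) and 83 bp at the others (46 to 145). The gene table gives no strand, so these ends are not divided into starts and stops.

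Several of the sites lay closer to another gene than to the ribosomal protein gene. This was so for 11 of the 29 larval Pita peaks and 25 of the 74 CP190 peaks. The same share at other bound genes is not given, so these counts are not read as particular to the members. The Pita summit was nearest to an end of Dhdds at RpS14a, of mRpL27, a mitochondrial ribosomal protein gene, at RpL27A, and of Sec13, a coat protein gene, at RpS3. Likewise it was nearest to Vps20 at RpS16 and to Jra, the fly Jun gene, at RpLP0-like. Further such neighbours were CG4927 at RpS15, CG6693 at RpL3, drd at RpL37-1 and lncRNA:CR44966 at RpL22. Without these 11 members CP190 was near 18 of 18 Pita-bound members and 46 of 64 others (adjusted Fisher exact p = 0.0441), but the interval of that odds ratio, 0.843 to 257, includes 1. That comparison was chosen after seeing the data.

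The distance rule itself left clear gaps for CP190 and Pita. The bound member with its CP190 peak farthest out was RpS10a, at 353 bp from the edge of a peak of 18.4-fold, and the nearest unbound one was RpS19b, at 815 bp from a peak of 5.13-fold. For larval Pita the farthest bound member was RpLP0-like at 432 bp, and the nearest unbound ones were RpL29 at 818 bp from a 3.54-fold peak and RpS14b at 895 bp from the 44.3-fold peak of its neighbour RpS14a.

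Between stages most Pita sites at the members were shared. Pita was near 26 members in both lists (27.96%), against 8.72% of all genes, near 2 in the adult list alone and near 3 in the larval list alone. The adult-only members were RpS14b (3.07-fold) and RpS28b (2.62-fold), both weak. The larva-only members were RpL30 (46.7-fold), RpLP0-like (3.89-fold) and RpL37-1 (2.25-fold).

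The larva-only sites differed in kind. At RpLP0-like the larval peak overlapped an adult Pita peak of 18.5-fold with its summit 19 bp away, whose edge lay 1178 bp from the gene. At RpL30 no adult Pita peak overlapped the larval one, although its larval fold stood at the 97.1 percentile. By overlap of peaks, 27 of the 29 strongest larval Pita peaks were present in the adult list, the exceptions being RpL30 and RpL37-1. That share is not given for all larval Pita peaks. By the distance rule, 26 of the 29 members with larval Pita also had adult Pita, as did 1216 of 1460 protein-coding genes.

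The adult Pita fold was the higher one at 23 of the 26 members bound in both lists, and at 1095 of 1216 protein-coding genes bound in both. Among the members' exceptions is a gene whose adult peak within the distance lay at another site than its larval one. Where an adult peak overlapped the strongest larval peak, the adult fold was higher at 25 of 27 members. The lists were made separately, and their median folds over all peaks were 7.13 in adults and 5.97 in larvae. By percentile within the list the adult value was higher at 20 of 26 members. The counts by overlapping peak and by percentile are not given for all genes, so they are not read as particular to the members. RpL23 had 90.1-fold in adults and 39.1-fold in larvae, with summits on the same base, and RpS10a had 89.1-fold and 49.0-fold. RpL17 had the highest value in each stage, 102-fold in adults and 81.1-fold in larvae. RpS14a, with 40.7-fold in adults and 44.3-fold in larvae, and RpL7A, with 24.3-fold and 27.6-fold, went the other way. The rank correlation between stages was 0.85 (Spearman) over the 26 members and 0.86 over the 1216 genes. The stages share the antibody and the mappability of the sites, and the part of these in the correlation was not tested.

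**Figure D4:**
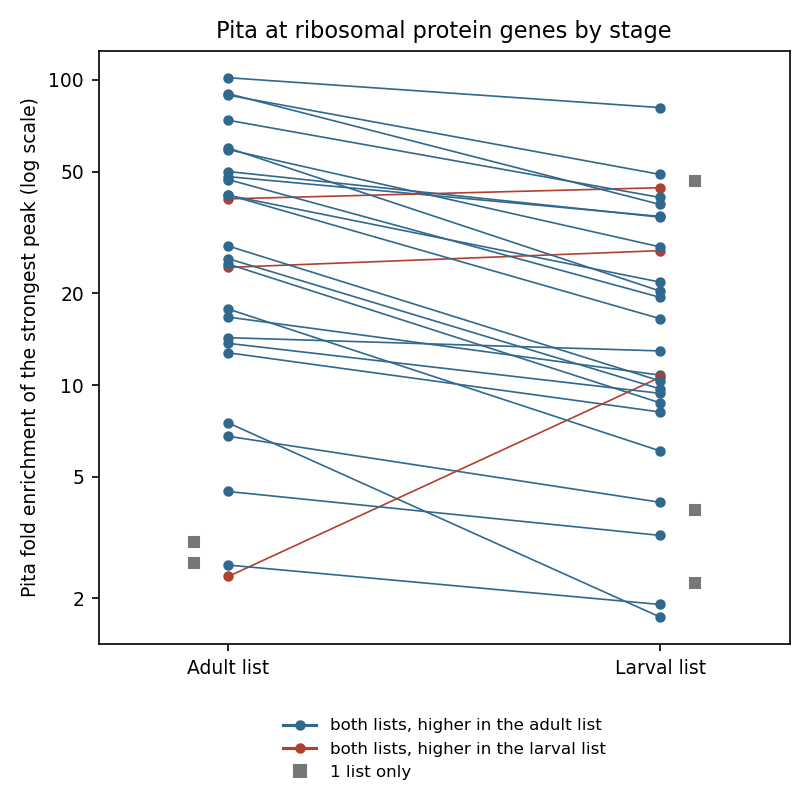
Pita fold enrichment of the strongest peak (y axis, log scale) at each ribosomal protein gene in the adult list (left) and the larval list (right), joined by a line for the 26 genes bound in both. Blue lines mark the 23 genes with the higher fold in the adult list, red lines the remainder, and grey squares the genes bound in 1 list, of which RpL30 at 46.7-fold in larvae is the highest. The red lines include a gene whose adult and larval peaks lie at different sites.

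CTCF was found at few members, and some of its peaks there were strong. RpS7 had 139-fold CTCF in adults and 102-fold in larvae. Pita at RpS7, 4.48-fold in adults and 3.22-fold in larvae, was weak, with its larval summit 14 bp from that of CTCF. At RpS26, whose product lines the mRNA exit channel, CTCF reached 67.3-fold in adults and 68.6-fold in larvae. The larval CTCF summit lay inside RpS26, 90 bp from the lower end, and 1810 bp from that of Pita at the other end of the gene.

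RpL37-1 is flanked on each side. Beyond its higher end lay CTCF of 33.0-fold in adults and 75.9-fold in larvae. Beyond its lower end, nearest to drd, larval CTCF (14.9-fold), Pita (2.25-fold), Su(Hw) (16.2-fold) and CP190 (23.4-fold) had summits within 64 bp of that of CTCF. CTCF at RpS19a was 8.26-fold in adults and 26.7-fold in larvae, and at RpLP1 it was 6.50-fold and 7.11-fold. The larval CTCF summits at RpS19a, at RpLP1 and beyond the higher end of RpL37-1 lay nearest to an end of another gene. Those at RpS7 and RpS26 lay nearest to the member. The adult list added RpLP2 (2.17-fold) and RpL34b (1.89-fold), at the 5.93 and 1.19 percentiles.

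Su(Hw) at RpS21, the fly gene whose loss is known for overgrowth of blood-forming organs, was 47.6-fold in adults and 42.7-fold in larvae. There the CP190 peak of 43.7-fold overlapped the larval Su(Hw) peak, but the summits lay 637 bp apart, with that of CP190 42 bp from the gene. RpS15Aa had Su(Hw) of 15.8-fold in adults and 14.4-fold in larvae beyond its lower end and Pita of 59.8-fold and 20.3-fold beyond its higher end. Its CP190 peaks were 28.1-fold with a summit 21 bp from that of larval Su(Hw), and 17.5-fold with a summit 8 bp from that of larval Pita. RpL37-1 had Su(Hw) of 18.7-fold in adults and 16.2-fold in larvae, and RpL28 had 9.33-fold and 7.22-fold. The larval Su(Hw) summits at RpS21, RpL37-1 and RpL28 lay nearest to an end of another gene, and those at RpS15Aa and RpLP0 nearest to the member. RpLP0 was bound by Su(Hw) in larvae (18.3-fold), and the overlapping adult peak of 27.3-fold lay outside the distance. All 6 larval CTCF and all 5 larval Su(Hw) peaks that were strongest at a member overlapped a CP190 peak. The same share over all larval CTCF and Su(Hw) peaks is not given, so this overlap is not read as particular to the members.

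Ribosomal protein genes with related symbols could differ in binding. Of 13 such pairs, listed after the values were seen, 9 have symbols that differ in a letter or number and 4 join a gene to a more diverged relative whose symbol ends in -like. In the 9 pairs larval Pita was near 1 gene in 4, both in 1 and neither in 4, and in the 4 pairs it was near 1 gene in 2 and neither in 2. RpS14a and RpS14b lie side by side on X, and the first had 49.9-fold CP190 and 44.3-fold larval Pita where the second had 5.63-fold CP190 and no larval Pita. RpS28a had 59.9-fold CP190 and 21.7-fold larval Pita, and RpS28b 5.73-fold CP190 and no larval Pita. RpS10a had 18.4-fold CP190 and 49.0-fold larval Pita, and RpS10b 6.74-fold and 4.13-fold. Where such genes share identical stretches, reads can be placed on either of them. Whether this affected the values of these pairs was not tested.

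CP190 was near both genes in 4 of the 9 pairs, 1 gene in 4 and neither in 1, and in the pairs with a -like gene it was near both in 3 and 1 gene in 1. The genes without it were RpL22-like, known from the male germ line, RpS5b, known from the ovary, RpS19b, RpS15Ab and RpL37-2, and both RpL10Aa and RpL10Ab. RpL22 had 25.2-fold CP190 and RpS5a 8.00-fold. RpL34b had 24.3-fold CP190 and RpL34a 4.02-fold, with no Pita at either. RpL24-like, RpL7-like and RpLP0-like had 3.67-fold, 3.14-fold and 2.78-fold.

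The 18 members without a peak in any list were RpL9, RpL10, RpL10Aa, RpL10Ab, RpL12, RpL13, RpL15, RpL21, RpL22-like and RpL23A, and 8 others. Large subunit genes made up 14 of the 18 and small subunit genes 4. CP190 was near 39 of 54 large subunit genes (72.2%, exact 95% interval 58.4% to 83.5%) and 35 of 39 small subunit genes (89.7%, 75.8% to 97.1%). These intervals overlap, which does not show that the shares are equal, and the difference was not tested.

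Other genes of protein synthesis and turnover are given for scale. CP190 was near 32 of 73 mitochondrial ribosomal protein genes (43.8%, 32.2% to 56.0%), 30 of 52 translation factor genes (57.7%, 43.2% to 71.3%) and 25 of 48 proteasome subunit genes (52.1%, 37.2% to 66.7%). The cytoplasmic ribosomal protein genes stood above these, at 79.6% (69.9% to 87.2%), an interval that overlaps that of the translation factors. Larval Pita was near 14 of the 73 (19.2%, 10.9% to 30.1%), 10 of the 52 (19.2%, 9.63% to 32.5%) and 6 of the 48 (12.5%, 4.73% to 25.2%), against which the members' 31.2% (22.0% to 41.6%) overlaps in interval with each. No test was made between these lists, and overlap of intervals does not show that shares are equal.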

How the data were processed

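Each of the 7 peak lists has 20 columns and the layout of an irreproducible discovery rate (IDR) run on 2 lists. The samples behind those lists are not named in the labels or files. The submitters' processing notes name dm6 as the build, and bedtools, Bowtie2, cutadapt, deepTools, MACS2 and Picard among the tools. Column 7, the authors' fold enrichment, is a linear ratio over their control. The authors' −log10 p and −log10 q per peak and the −log10 IDR were used in alternatives alone, and the deposited score column is a rescaled IDR. IDR reached 0.0499 for adult Su(Hw) and 0.0500 for larval Pita, and stayed within 0.01 elsewhere.

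Gene positions came from a RefSeq table (Release 6 plus ISO1 MT, which is dm6), and all 93 members were found there. It gives no strand and no sequence was used here, so the planned distance to a start and the planned promoter words were not run, which left 5 of 6 planned tests. A bound gene is represented by its highest fold in a list. Shares have Clopper-Pearson 95% intervals, odds ratios Woolf intervals (0.5 added to each cell where a cell is 0), and medians exact order-statistic intervals, all covering counting error over genes alone. Fisher exact tests were two-sided, with a threshold of 0.05 on p-values adjusted by Benjamini-Hochberg. The members and lists were chosen with earlier results of these data known. Named are all members bound by Pita, CTCF or Su(Hw), the 10 highest for CP190, up to 10 unbound members by alphabet, and others given as members of a functional group or pair, which were picked after their values were seen. A few members are counted but not reported here by name. Python 3.11.15, SciPy 1.17.1 and statsmodels 0.14.6 were used. The binding rule was tested on simulated data.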

Additional observations from a re-analysis of the deposited data

How the results depend on the processing

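Of 91 recomputed values, 84 kept their direction and side of the threshold or stayed within the interval of the value reported. With only the upper part of each list, from its median −log10 q upwards, CP190 was near 60.2% of the members and 18.2% of all protein-coding genes. The odds ratio of CP190 at Pita-bound against other members was 7.67 with a distance of 200 bp and no longer passed. With summits within 500 bp, a setting added after seeing the data, that of CTCF was 12.8 and passed. Odds ratios that had not passed as reported turned round in 4 cases, to 0.618 for Su(Hw) at 200 bp, 0.565 for Su(Hw) with the adult Pita list, and 0.750 for CTCF and for Su(Hw) in the same upper part of the lists. The causes of these changes were not tested. Over the alternatives the shares of members ranged from 23.7% to 31.8% for adult Pita, 23.7% to 33.3% for larval Pita, 4.30% to 9.09% for adult CTCF, 5.38% to 6.82% for larval CTCF, 2.15% to 5.38% for adult Su(Hw) and 2.15% to 6.45% for larval Su(Hw). The lowest Su(Hw) shares came with 200 bp and with summits within 500 bp, and the lowest adult CTCF share with the upper part of the list. The distance to an annotated start and the promoter words were not run. No paired analysis was possible because the lists are not tied to single samples. Depth is unknown, so a missing peak shows only that none was listed.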
